A study of Mus musculus with 94 samples.

Results

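The keratin genes are the members described here, taken as every gene whose symbol is Krt followed by a number and at most 1 letter. They numbered 54 of the 49080 genes measured. RNA was sequenced from 94 bulk 4T1 tumors, a mouse mammary carcinoma line implanted in the right hind limb of female BALB/c mice at 8 weeks of age. The 4 treatments were control, 6 Gy, INDO and 6 Gy + INDO, and tumors were taken 1, 3, 7, 15 and 23 days after IR. Irradiated mice received a single dose of 6 Gy, and INDO (indomethacin, an inhibitor of both COX enzymes) was dosed through the drinking water at 30 mg/L. Control mice received neither, and every tumor came from the same implanted line, so 1 model is described. Control held 4, 5, 5, 3 and 3 tumors on the successive days, and each treated group held 5, apart from 4 tumors given 6 Gy + INDO on day 3. Each library holds tumor cells together with whatever host tissue was taken with them.

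Keratins are the intermediate filament proteins of epithelia. A filament is built from pairs of a type I and a type II keratin, and the pair in use marks the kind of epithelium: KRT8 with KRT18 in simple epithelia such as mammary luminal cells and carcinomas, KRT5 with KRT14 in basal keratinocytes, KRT1 with KRT10 in the differentiated layers above them, KRT6 with KRT16 and KRT17 in wounded epidermis and skin appendages, and a large set in the hair follicle. The members were therefore described as simple epithelial (6 genes), basal epidermal (3), suprabasal epidermal (9), wound and appendage (6), internal stratified (5), inner root sheath (8) and hair shaft (15) keratins, with Krt222 and Krt88 in no class. A class name does not say which cells of a tumor sample held the RNA. Krt85 was not analysed here.

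In the reference annotation (GRCm38) 27 members lie on chromosome 11 and 27 on chromosome 15, in the type I and type II clusters. Krt18, at the end of the chromosome 15 cluster beside its partner Krt8, is a type I gene. Promoter sequence from RefSeq (GRCm38.p6, 250 bases before to 50 after the start of transcription) matched 36 members. The TATA box letters TATAAA, searched on both strands, were found in 19 of these 36 promoters (52.8%) and in 14.2% of 27025 promoters of the same length. The GC box letters GGGCGG were found in 2 keratin promoters (5.56%, against 35.9% of all). The AP-1 letters TGANTCA were found in 1 (2.78%, against 7.93%). Windows of the simple pair and of the basal pair are shown because the genes of each pair varied together over the tumors. Those of the simple pair are Krt8 (chr15:102004293-102004592, minus strand) and Krt18 (chr15:102027966-102028265, plus strand). Those of the basal pair are Krt5 (chr15:101712856-101713155, minus strand) and Krt14 (chr11:100205981-100206280, minus strand). The annotated Krt14 gene spans chr11:100203162-100207548, so its window lies inside the gene and not at its annotated 5' end. Capitals mark TATAAA on either strand, which overlaps itself in Krt8 and is not in the other 3 windows. For Krt14 this describes sequence within the gene and leaves the promoter at its annotated 5' end unread.
Krt8: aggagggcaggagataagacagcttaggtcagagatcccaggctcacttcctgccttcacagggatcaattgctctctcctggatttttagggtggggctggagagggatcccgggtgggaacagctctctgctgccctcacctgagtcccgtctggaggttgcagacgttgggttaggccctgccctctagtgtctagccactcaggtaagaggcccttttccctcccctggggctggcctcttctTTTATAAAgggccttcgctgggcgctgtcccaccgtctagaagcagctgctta
Krt18: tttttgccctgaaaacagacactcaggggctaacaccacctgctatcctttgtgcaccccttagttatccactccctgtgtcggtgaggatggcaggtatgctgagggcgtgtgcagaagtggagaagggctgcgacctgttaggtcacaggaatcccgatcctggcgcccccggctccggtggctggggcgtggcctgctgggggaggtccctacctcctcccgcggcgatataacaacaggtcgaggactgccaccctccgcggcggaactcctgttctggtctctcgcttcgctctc
Krt5: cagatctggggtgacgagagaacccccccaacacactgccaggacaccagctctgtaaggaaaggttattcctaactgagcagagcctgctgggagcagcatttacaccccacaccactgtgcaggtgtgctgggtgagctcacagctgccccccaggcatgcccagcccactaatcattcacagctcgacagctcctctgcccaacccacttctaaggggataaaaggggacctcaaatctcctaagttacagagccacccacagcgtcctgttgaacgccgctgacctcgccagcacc
Krt14: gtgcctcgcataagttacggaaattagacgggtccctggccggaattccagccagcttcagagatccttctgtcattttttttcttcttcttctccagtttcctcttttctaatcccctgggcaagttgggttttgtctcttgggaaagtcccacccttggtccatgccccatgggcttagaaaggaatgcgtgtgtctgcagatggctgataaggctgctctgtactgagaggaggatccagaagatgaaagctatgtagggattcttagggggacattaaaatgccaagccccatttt

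Simple epithelial keratins were the most abundant members in nearly all tumors. Levels are CPM, counts scaled to a common library size with TMM factors. Krt18 had a mean of 899 CPM over the 94 tumors (range 452 to 1720) and Krt8 a mean of 778 (434 to 1310). Krt7, another luminal keratin, had a mean of 378 CPM (141 to 673) and Krt19 a mean of 53.3 (23.7 to 91.6). All 4 were detected in every tumor and varied 3.01- to 4.79-fold between the lowest and the highest tumor. Per kb of exon, Krt18 (626 CPM per kb) stood above Krt8 (397), Krt14 (143) and Krt7 (53.6). The length joins the exons of all annotated transcripts, 7.049 kb for Krt7 against 1.437, 1.958 and 1.758 kb for Krt18, Krt8 and Krt14. The value of Krt7 may therefore be too low, and its order against Krt14 is not settled. The remaining simple keratins, Krt20 of intestinal and urothelial epithelium and Krt23, had means of 0.279 and 0.743 CPM.

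Epidermal keratins varied far more. Krt14 had a mean of 251 CPM and a range of 25.1 to 1200. Krt5, its partner, had a mean of 70.7 CPM but a median of 1.62 and a range of 0 to 561. Krt1 had a median of 0.236 CPM and a highest value of 542. The wound keratins Krt6a and Krt6b had medians of 0.263 and 0.154 CPM, against highest values of 612 and 691. Mean and median thus lay far apart for these genes, since a minority of tumors held most of their reads. The same held for Krt16 (mean 48.4, median 5.21 CPM), Krt10 (44.0 and 1.64), Krt17 (29.0 and 6.96), Krt77 (16.6 and 0.0769), Krt79 (11.4 and 0.366), Krt2 (3.73 and 0.0231) and Krt78 (1.61 and 0.169). Krt15, a basal and bulge keratin, had a mean of 13.8 and a median of 5.23 CPM, while Krt80 (18.8 and 16.6) and Krt13 of internal stratified epithelia (1.42 and 1.23) were more even. These 19 genes are the members with a mean of at least 1 CPM. Of the 35 others, 28 had a mean under 0.1 CPM, and 3 counts correspond to 0.0274 CPM in the largest library (109 M counts) and to 0.143 CPM in the smallest (21.0 M).

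**Figure D1:**
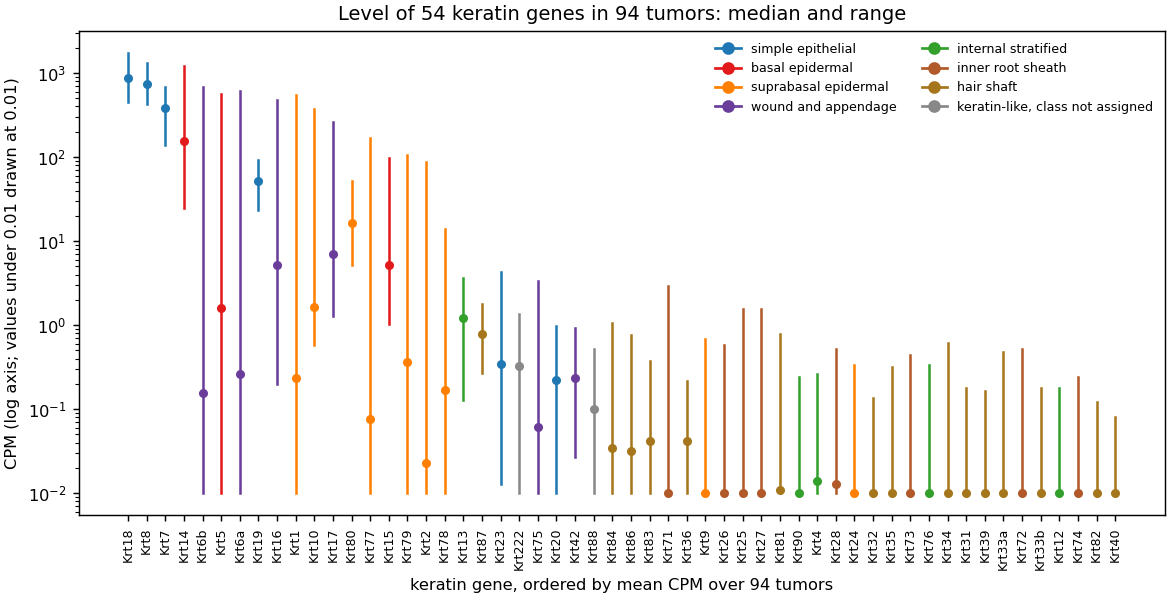
Median (point) and range (line) of each of the 54 keratin genes over 94 tumors in CPM on a log axis, with values under 0.01 drawn at 0.01 and colors for the keratin classes. Krt18, Krt8, Krt7 and Krt19 span less than 5-fold, while Krt5, Krt1, Krt6a and Krt6b run from 0 to 542 CPM or more.

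Summed over its 6 genes, the simple class ranged from 1200 to 3280 CPM, a 2.73-fold span. The 18 basal, suprabasal and wound keratins together ranged from 45.7 to 4940 CPM, a 108-fold span, and the 23 hair follicle keratins from 0.442 to 12.7 CPM. Simple keratins made up a median of 91.4% of all keratin CPM, with a lowest value of 19.6%. In 8 of the 94 tumors the epidermal and wound sum was above the simple sum. Beside the keratins, the labelled tumor epithelium was present throughout: Epcam ranged from 186 to 756 CPM and Cdh1, E-cadherin, from 162 to 526. The summed level of 22 epidermal genes that are not keratins ranged from 42.3 to 2940 CPM. Loricrin (Lor), a defining protein of the cornified layer, was at 0 in 35 tumors and reached 82.5 CPM. The tumor with the highest epidermal keratin sum, 6 Gy + INDO replicate 5 on day 7, also had the highest sum of these 22 genes. In 11 tumors the summed level of olfactory and vomeronasal receptor genes was over 300 CPM (333 to 1950, against at most 131 in the others): 6 Gy + INDO replicates 1, 2 and 4 of day 3, replicates 2, 3 and 5 of day 7 and replicates 2 and 4 of day 23, INDO replicate 5 of day 1 and replicate 3 of day 15, and control replicate 1 of day 15. In bulk RNA, fewer cells of a type and less RNA per cell cannot be told apart.

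**Figure D2:**
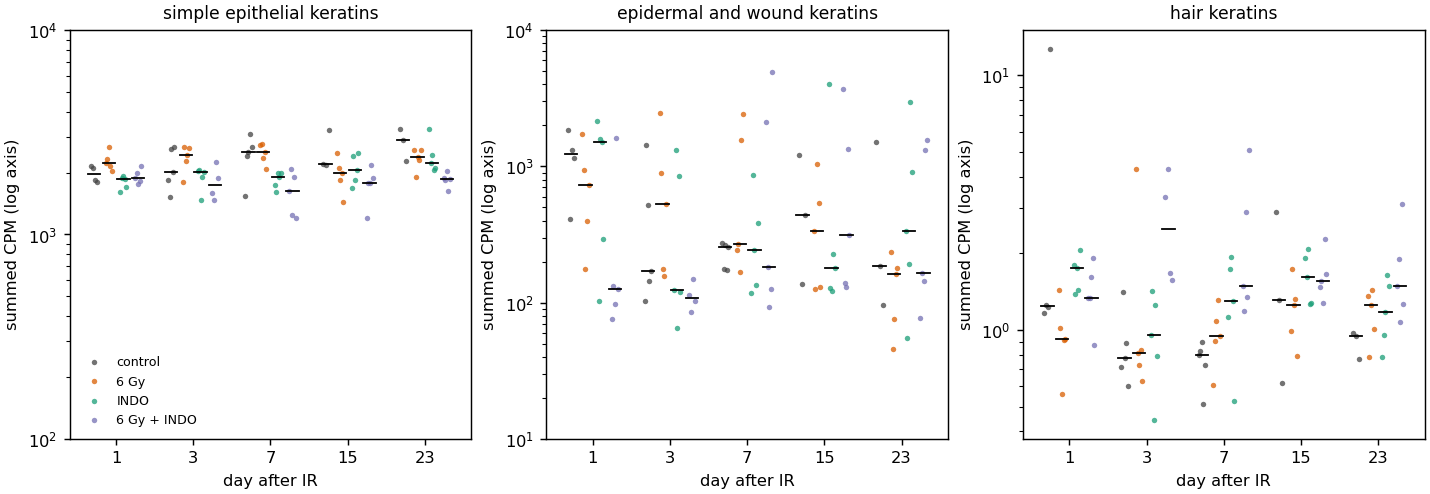
Summed CPM (log axis) of simple epithelial keratins (6 genes), epidermal and wound keratins (18 genes) and hair keratins (23 genes) by day after IR and treatment, with 1 point a tumor and a bar at the group median. The simple sum stays between 1200 and 3280 CPM, while tumors of the same group differ widely in the epidermal sum.

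Filament partners varied together across the tumors. For Krt8 and Krt18, Pearson's r of log2 CPM was 0.869 and Spearman's rho 0.859 (94 tumors, permutation p = 1e-05 for both, adjusted p = 1.5e-05), and r was 0.849 without the 2 tumors farthest from the median of Krt8. Within treatment and day groups r was 0.875. For Krt5 and Krt14, r was 0.804 and rho 0.789 (permutation p = 1e-05, adjusted p = 1.5e-05), with 0.793 without the 2 farthest tumors and 0.81 within groups. For Krt6a and Krt16, r was 0.91 and rho 0.861 (permutation p = 1e-05, adjusted p = 1.5e-05), with 0.905 and 0.918 in the same order. Krt5 was under 1 CPM in 45 tumors and Krt6a in 49, and r pooled these with the tumors at high levels. Krt7 and Krt19 were less closely related, with r = 0.422 and rho = 0.425 (permutation p = 4e-05 and 5e-05, adjusted p = 4.8e-05 and 6e-05), 0.37 without the 2 farthest tumors and 0.533 within groups. The p of 1e-05 is the smallest that 100000 permutations give, and p was adjusted over 6 relations. All values were scaled to library size, which can move any such correlation, and its part in r was not tested. Krt6a and Krt6b share 38.59% and 39.61% of their 75-base stretches with another gene, mainly each other. Krt16 shares 28.91%, mainly with Gm11597, and Krt8 21.97%, mainly with the pseudogene Krt8-ps. Krt14 shares 5.71%, mainly with Krt16, and Krt5 5.18%, mainly with Gm5478. Reads may have been split between each of these genes and its partner.

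Krt1 fell into separate clusters, with no tumor between 0.493 and 4.29 CPM. In the 42 tumors of the upper cluster Krt1 and Krt10 had r = 0.921 and rho = 0.937 (permutation p = 1e-05 for both, adjusted p = 1.5e-05), with 0.908 without the 2 farthest tumors and 0.904 within groups. In the 52 tumors of the lower cluster r was 0.126 (permutation p = 0.376, adjusted p = 0.376) and rho -0.0119 (permutation p = 0.934, adjusted p = 0.934). The upper cluster held 9 of 20 control tumors, 13 of 25 after 6 Gy, 12 of 25 with INDO and 8 of 24 with 6 Gy + INDO. By day it held all 4 control tumors of day 1 but 1 of 5 on day 7, and 0 of 5 tumors given 6 Gy on day 23.

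Some epidermal keratins kept a level where Krt5 or Krt1 was near 0. In the 45 tumors with Krt5 under 1 CPM, Krt14 lay between 25.1 and 235 CPM with a median of 112. Whether tumor or skin cells held the Krt14 RNA of these tumors was not tested. In the same tumors Krt80 lay between 5.25 and 20.1 CPM and Krt15 between 1.03 and 7.76. Krt10 kept 0.588 to 1.95 CPM in the 52 tumors with Krt1 under 1 CPM. The tumors given 6 Gy and taken on day 23 show this in 1 group: Krt5 was at 0, 0.0389, 0, 0 and 0.185 CPM in replicates 1 to 5, while Krt14 was at 200, 25.1, 57.1, 137 and 144 CPM.

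**Figure D3:**
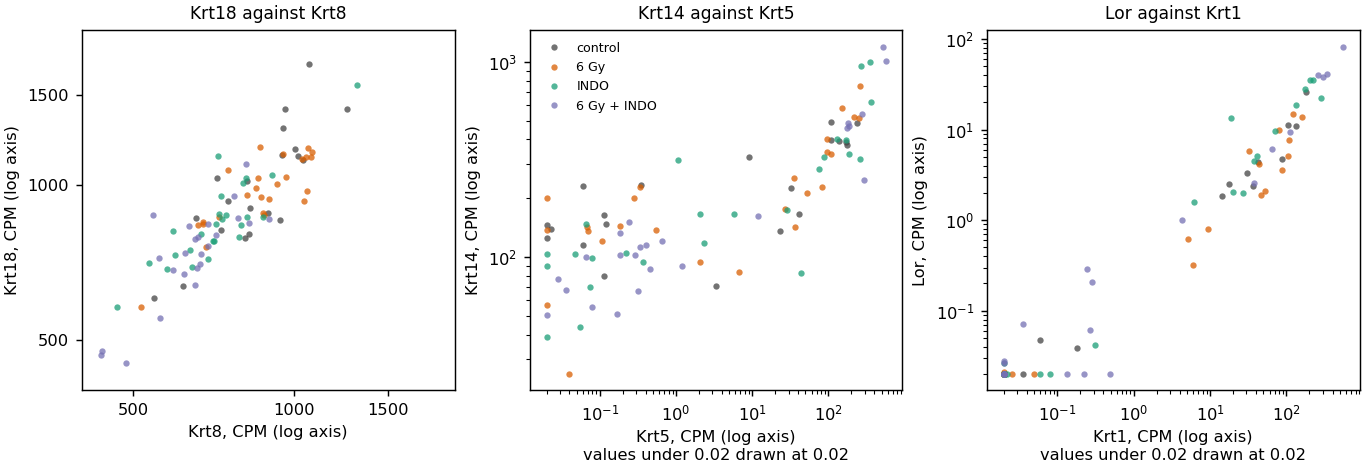
Krt18 against Krt8, Krt14 against Krt5 and Lor against Krt1 in 94 tumors, in CPM on log axes with colors for the treatments. Krt14 rises with Krt5 but keeps 25.1 to 235 CPM in the 45 tumors with Krt5 under 1 CPM, and Krt1 leaves a gap between 0.493 and 4.29 CPM.

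Each treatment was compared with control on each day with edgeR's quasi-likelihood test, and genes count as called where the p-value, adjusted over all genes tested by Benjamini-Hochberg, was under 0.05. The 3 treatments of a day share their control tumors. On day 1, Krt20 was lower after all 3 treatments. Its level was 0.682, 0.362, 0.689 and 0.413 CPM in the 4 control tumors. It was 0.148, 0.218, 0.109, 0.165 and 0.243 CPM after 6 Gy, and 0.185, 0.1, 0.171, 0.22 and 0.276 CPM with INDO. With 6 Gy + INDO it was 0.12, 0.151, 0.0179, 0.0923 and 0.0435 CPM. No treated tumor reached the lowest control. Several treated values lie in or under the range of 0.0274 to 0.143 CPM that 3 counts give, depending on the library. The log2 fold changes were -1.58 ± 0.389 (SE, edgeR adjusted p = 0.00997) after 6 Gy, -1.42 ± 0.39 (adjusted p = 0.0205) with INDO and -2.57 ± 0.415 (adjusted p = 0.000226) with 6 Gy + INDO. For INDO the call is lost without control replicate 1, control replicate 3 or INDO replicate 2. The call after 6 Gy and the call with INDO were also lost when all 94 tumors were fitted together.

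Krt20 was the 1 keratin of 27 tested that was called after 6 Gy on day 1, where 15.6% of all genes were called (6.15% higher and 9.43% lower), and the 1 called with INDO, where 14.7% were (5.81% higher and 8.89% lower). With 6 Gy + INDO, 3 of 27 were called, all lower, where 13.3% of all genes were called lower, 10.7% higher and 24.1% in either direction. Under scaling by 14 housekeeping genes 1 was called higher and 2 lower (4827 of 22276 genes called, 2483 of them higher). By DESeq2 the split was 1 and 5 (6146 genes, 2700 of them higher). The other 2 were Krt14, at 484, 225, 373 and 396 CPM in control and 50.7, 102, 68.0, 247 and 100 CPM with 6 Gy + INDO (log2 fold change -1.69 ± 0.583, edgeR adjusted p = 0.0417), and Krt16, at 61.8, 8.88, 41.0 and 68.2 against 1.63, 5.2, 2.65, 9.38 and 2.52 CPM (-3.39 ± 1.06, adjusted p = 0.0264). The groups overlap by 1 tumor for each. Without replicate 4 of 6 Gy + INDO, in which the epidermal and wound sum was 1620 CPM against 75.7 to 133 CPM in the other 4, 17 keratins were called. Without replicate 1 or 3 of 6 Gy + INDO, or control replicate 1, 1 was called. The 22 epidermal genes that are not keratins summed to 975 CPM in that tumor and 72.8 to 102 CPM in the others, against 218 to 1020 CPM in control, and 0 of the 22 were called. Adipocyte genes moved on day 1 after every treatment: 8 of 8 were called lower after 6 Gy, and 7 of 8 with INDO and with 6 Gy + INDO (medians -4.52, -3.68 and -4.29). Their summed level was 36.8 to 122 CPM in control, 6.18 to 19.6 CPM after 6 Gy, 5.73 to 37.9 CPM with INDO and 6.27 to 19.3 CPM with 6 Gy + INDO. The part of these host tissue genes in the result was not tested.

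On day 3, Krt42, a keratin of the nail, was higher after 6 Gy. Its level was 0.115, 0.176, 0.118, 0.182 and 0.296 CPM in control and 0.335, 0.473, 0.725, 0.486 and 0.792 CPM after 6 Gy, and these groups do not overlap. The log2 fold change was 1.65 ± 0.396 (edgeR adjusted p = 0.0177), and Krt42 was the 1 keratin of 26 called, where 7.72% of all genes were (3.62% higher and 4.1% lower). With 6 Gy + INDO, 2 of 26 were called, both higher, where 10.1% of all genes were called higher, 9.43% lower and 19.5% in either direction. DESeq2 called 2 higher and 6 lower in the same comparison, where it called 5288 of 21814 genes, 2942 of them higher. Krt42 was at 0.452, 0.747, 0.403 and 0.141 CPM (1.30 ± 0.427, adjusted p = 0.0402). Krt87, a hair keratin, was at 0.531, 0.586, 0.471, 0.77 and 0.342 CPM in control and 1.07, 1.25, 1.47 and 0.984 CPM with 6 Gy + INDO (1.19 ± 0.322, adjusted p = 0.0169), without overlap. Krt87 lies beside Krt7 on the opposite strand and shares 22.37% of its 75-base stretches with another gene. Replicates 1, 2 and 4 were among the 11 tumors with high receptor gene sums. Without these 1 tumor is left in the group, too few to read calls of any gene. The log2 fold changes were then 1.194 for Krt42 and 1.475 for Krt87. Without replicate 3 of 6 Gy + INDO 5 keratins were called, and without replicate 1 or 2, or any 1 of control replicates 1 to 4, 1 was. With INDO alone 0 of 26 were called, with 0 at an unadjusted p under 0.05 and 0 by DESeq2, where 6.33% of all genes were called (2.38% higher and 3.95% lower).

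On day 7 with 6 Gy + INDO, 4 of 6 simple keratins were called lower, and 1 of 3 basal, 2 of 7 suprabasal and 5 of 6 wound and appendage keratins higher. Of 25 members tested, 9 were called higher and 4 lower, where 24.8% and 21.2% of all genes were, 46% in all. The 4 lower members were all simple keratins, while Krt19 (0.00 ± 0.153) and Krt23 (2.11 ± 0.941, edgeR adjusted p = 0.0725) were not called. Of the 14 other epithelial genes 0 were called lower and 1 higher (median -0.03), and of the 14 housekeeping genes 8 were called lower and 1 higher. Krt18 was at 604, 1020, 1150, 1410 and 1180 CPM in control and 690, 846, 477, 736 and 452 CPM with 6 Gy + INDO (log2 fold change -0.66 ± 0.18, edgeR adjusted p = 0.00726). Krt7 was at 337, 525, 381, 673 and 442 against 234, 356, 295, 428 and 220 CPM (-0.54 ± 0.193, adjusted p = 0.03). Krt8 was at 547, 814, 950, 963 and 1010 against 658, 823, 436, 669 and 484 CPM (-0.39 ± 0.159, adjusted p = 0.0496). The groups overlap for all 3 genes, and control replicate 1 was the lowest control tumor for each. Krt20 was at 0.754, 0.281, 0.698, 0.269 and 0.803 CPM in control and 0.11, 0.152, 0.181, 0.0518 and 0.146 CPM with 6 Gy + INDO (-2.07 ± 0.506, adjusted p = 0.00353), with no overlap. Under scaling by housekeeping genes 9 were called higher and 2 lower, where 9119 of 21874 genes were called, 7268 of them higher. There, where the median of all genes moved by 0.26 on the log2 scale, the calls of Krt7 (-0.28, edgeR adjusted p = 0.205) and Krt8 (-0.15, adjusted p = 0.362) were lost and that of Krt18 was kept (-0.40, adjusted p = 0.0346). The call of Krt8 was kept in 4 of 20 fits that left out 1 tumor each, and was lost with a block for the replicate number (-0.40, edgeR adjusted p = 0.0771). Without the tumors high in receptor genes Krt8 (-0.30, adjusted p = 0.239), Krt7 and Krt18 all lost their calls. Krt7 also lost its call without any 1 of replicates 1, 3 and 5 of 6 Gy + INDO or control replicates 2 and 4.

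The higher members on day 7 were mostly set by 2 of the 5 tumors. Krt16, a wound keratin, was at 9.19, 1.85, 4.45, 3.65 and 4.12 CPM in control and 108, 3.92, 2.94, 3.29 and 482 CPM with 6 Gy + INDO (4.81 ± 1.55, edgeR adjusted p = 0.0176). Krt17 was at 11.2, 3.48, 4.54, 2.79 and 2.68 against 66.9, 5.44, 3.03, 4.58 and 259 CPM (3.90 ± 1.27, adjusted p = 0.0187). Krt15 was at 8.54, 6.8, 2.26, 2.33 and 1.31 against 74.5, 4.17, 4.71, 5.57 and 66.3 CPM (2.96 ± 0.932, adjusted p = 0.0154). In each case replicates 1 and 5 stood high and the other 3 lay within the control range. Krt42 (1.47 ± 0.454, adjusted p = 0.0138), Krt75 (4.44 ± 1.62, 0.0321), Krt78 (4.79 ± 1.8, 0.0365), Krt6b (7.55 ± 3.05, 0.0496), Krt80 (0.81 ± 0.314, 0.0428) and Krt87 (1.27 ± 0.323, 0.00459) were the other higher members. Krt87 did not follow these tumors, since 4 of the 5 lay above the highest control. Krt5 (275, 0.243, 0.317, 1.19 and 519 CPM) and Krt1 (342, 0.274, 0.136, 0.285 and 542 CPM) followed the same tumors but were not called. Of the 22 epidermal genes that are not keratins 12 were called higher as well, among them Trp63, a transcription factor of basal keratinocytes (3.07 ± 0.732, adjusted p = 0.00306), and Lor (6.24 ± 2.39, adjusted p = 0.0394). Their sum was 1360 and 2940 CPM in replicates 1 and 5, 53.9 to 68.3 CPM in the other 3, and 86.3 to 174 CPM in control. Their part in the result was not tested. Without replicate 5 of 6 Gy + INDO 5 keratins were called, and without replicate 1 of 6 Gy + INDO or control replicate 2, 3 or 5, 8 were. Without control replicate 4, 7 were called, and without control replicate 1, 20 were. Without the tumors high in receptor genes (replicates 2, 3 and 5 of 6 Gy + INDO), 4 were called, where 4710 of 22906 genes were.

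With INDO on day 7, 2 of 25 keratins were called higher and 1 lower, where 12.7% and 11.7% of all genes were, 24.3% in all. Krt20 was at 0, 0.13, 0.187, 0.0799 and 0.0526 CPM, below every control (-2.50 ± 0.509, edgeR adjusted p = 0.00326). Here and with 6 Gy + INDO, some of its values are near the level of 3 counts (0.0274 to 0.143 CPM, depending on the library). Krt87 was at 0.962, 0.933, 1.56, 0.991 and 0.5 CPM against 0.377, 0.682, 0.508, 0.269 and 0.347 in control (1.24 ± 0.322, adjusted p = 0.0117). Krt13 was at 1.68, 1.37, 3.55, 3.5 and 2.97 CPM against 1.15, 1.94, 0.982, 1.49 and 0.791 in control (1.10 ± 0.365, adjusted p = 0.0354). After 6 Gy, Krt42 was the 1 keratin called, where 16% of all genes were (5.69% higher and 10.3% lower), at 0.416, 0.681, 0.197, 0.396 and 0.514 CPM against 0.0397, 0.141, 0.225, 0.0854 and 0.108 in control (1.84 ± 0.441, edgeR adjusted p = 0.00738). The groups overlap for Krt87, Krt13 and Krt42, in each case by 1 or more tumors. Without control replicate 1 or 6 Gy + INDO replicate 2, 5 keratins were called with INDO, and without control replicate 1, control replicate 4 or INDO replicate 1, 2 were called after 6 Gy. Krt13 lost its call without any 1 of control replicates 3, 4 and 5 or INDO replicates 3, 4 and 5.

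On days 15 and 23 no keratin was called in any of the 6 comparisons when edgeR was fitted to the 4 groups of the day. With all 94 tumors in 1 edgeR fit, 5 were called for 6 Gy + INDO on day 23, 3 higher and 2 lower. In that fit 6735 of 29373 genes were called, 4376 of them higher. On day 15, 2, 2 and 3 of 25 members had an unadjusted p under 0.05 after 6 Gy, INDO and 6 Gy + INDO, and DESeq2 called 0, 1 and 3 (43, 161 and 1317 of all 21195 genes). On day 23 these were 9, 1 and 5 of 24 members, and DESeq2 called 3, 0 and 2 (174, 133 and 1774 of all 21133 genes). The count for 6 Gy + INDO was 1 on day 15 without 6 Gy replicate 5, and on day 23 it was 1 without 6 Gy replicate 2 and 3 without INDO replicate 1. In the edgeR fits of each day few genes were called at all (0%, 0% and 1.33%, the last 0.778% higher and 0.552% lower, on day 15, and 0%, 0% and 0.00473% on day 23), and control held 3 tumors on each day.

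**Figure D4:**
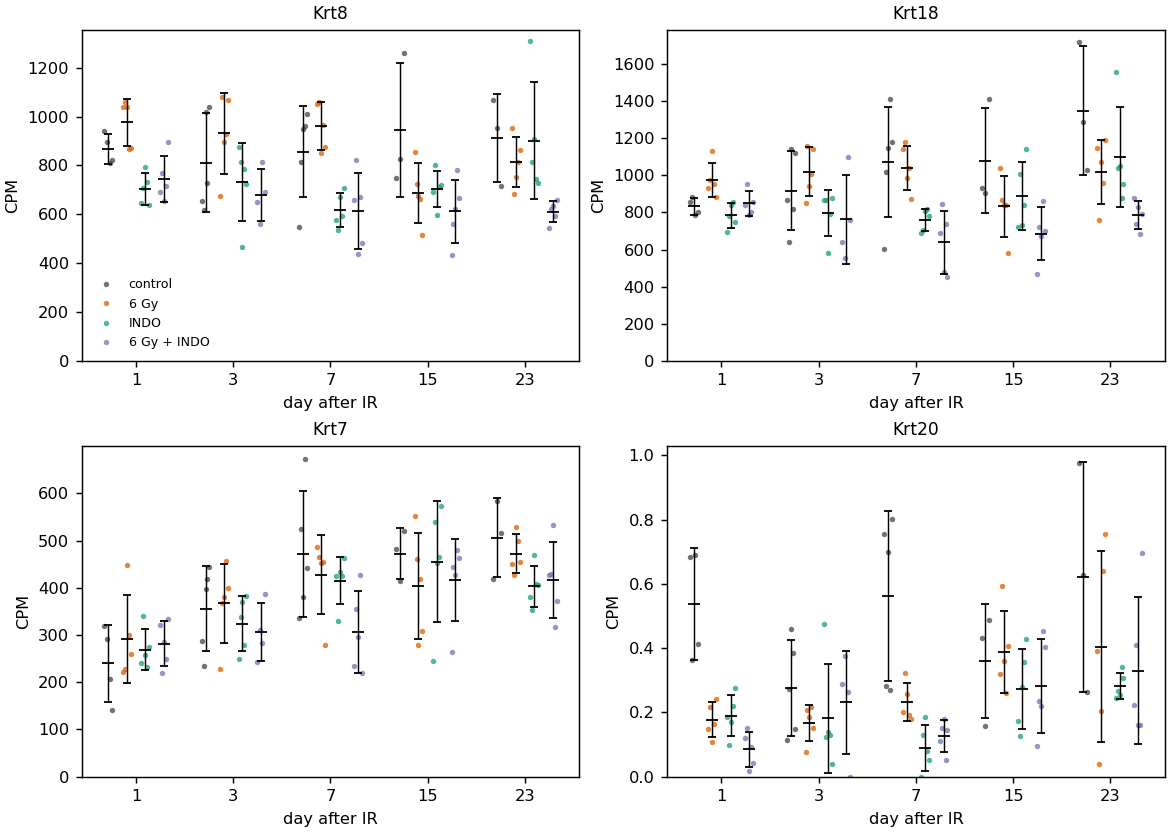
Krt8, Krt18, Krt7 and Krt20 in CPM by day after IR and treatment, with 1 point a tumor and the mean ± SD of each group in black. Krt20 lies below every control tumor in all 3 treated groups on day 1 and in both INDO groups on day 7.

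As a mean over the 5 days, from 1 fit of all 94 tumors, the simple pair was lower in both INDO groups. With INDO, Krt8 changed by -0.27 ± 0.0779 (log2, edgeR adjusted p = 0.00427) and Krt18 by -0.27 ± 0.083 (adjusted p = 0.00732). With 6 Gy + INDO, Krt8 changed by -0.43 ± 0.0787 and Krt18 by -0.48 ± 0.0838. Both were also lower with 6 Gy + INDO than after 6 Gy alone, Krt8 by -0.41 ± 0.0738 and Krt18 by -0.40 ± 0.0786 on the log2 scale. On day 23 Krt8 was at 1070, 953 and 716 CPM in control and 545, 623, 634, 592 and 660 CPM with 6 Gy + INDO, without overlap. It was not called there, where 0.00473% of all genes were, and the share of all genes without overlap was not counted. On day 7, where Krt8 was called, the groups overlap. Krt7 and Krt19 were called in none of these comparisons over days. Of 14 other epithelial genes 3 were lower with INDO, where 17.4% of all genes were, and 5 with 6 Gy + INDO, where 23.2% were, among them Epcam (-0.21 ± 0.0795 and -0.30 ± 0.0803, adjusted p = 0.0299 and 0.00141). Krt20 was lower after 6 Gy (-0.81 ± 0.241, adjusted p = 0.00985), with INDO (-1.22 ± 0.248) and with 6 Gy + INDO (-1.26 ± 0.255). Its call after 6 Gy is lost without day 1 or without day 7. The calls of Krt8 and Krt18 with INDO are lost without day 7. Under scaling by housekeeping genes, which moved the median of all genes by 0.11 (INDO), 0.23 (6 Gy + INDO) and 0.29 (the combination against 6 Gy alone), Krt18 kept its direction but lost its call with INDO (-0.15, edgeR adjusted p = 0.0544) and against 6 Gy (-0.12, adjusted p = 0.0692). Under the same scaling Krt8 and Krt18 kept their calls with 6 Gy + INDO at smaller sizes (-0.19 and -0.25), as did Krt8 with INDO (-0.15) and against 6 Gy (-0.14). The call of Krt18 against 6 Gy was also lost without the tumors high in receptor genes.

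Over days, 2 of 34 keratins were called higher and 1 lower after 6 Gy, where 9.19% and 10.6% of all genes were, 19.8% in all, and 1 and 1 under scaling by housekeeping genes. With INDO these were 3 and 3 (16.8% and 17.4%, 34.2% in all), and with 6 Gy + INDO 5 and 4 (29.6% and 23.2%, 52.8% in all). Krt13 was higher in all 3 treatments (0.60 ± 0.186, 0.62 ± 0.187 and 0.67 ± 0.189, edgeR adjusted p = 0.0137, 0.00704 and 0.00228). Krt87 (0.59 ± 0.145 and 0.80 ± 0.147) and Krt222, a keratin-like gene (0.73 ± 0.226 and 0.88 ± 0.229), were higher with INDO and with 6 Gy + INDO, and Krt42 after 6 Gy (0.66 ± 0.23, adjusted p = 0.0311). With 6 Gy + INDO, Krt9 of palm and sole epidermis (2.24 ± 0.844, adjusted p = 0.0212) and Krt88 (0.77 ± 0.311, adjusted p = 0.0301) were higher, and the hair keratin Krt83 was lower (-1.95 ± 0.427, adjusted p = 0.000108). Of these, Krt42 lost its call with no filter, under scaling by housekeeping genes and without day 1, 3 or 7 (down to 0.38, edgeR adjusted p = 0.407). For the combination, Krt222 (0.48, adjusted p = 0.159) and Krt88 (0.21, adjusted p = 0.718) lost theirs without the tumors high in receptor genes, Krt88 also without day 3 or 7, and Krt9 without day 3, 7 or 23 (down to 1.29, adjusted p = 0.3). With INDO, Krt222 lost its call without day 1 or 23. Krt13 lost its call in all 3 treatments without day 15, and with INDO without day 7. Krt9, Krt83 and Krt88 had means of 0.0517, 0.0615 and 0.132 CPM. None of the basal and 1 of the 8 suprabasal keratins tested was called over days with 6 Gy + INDO. With 6 Gy + INDO against 6 Gy, 3 were called higher and 3 lower (25.9% and 19.8% of all genes, 45.7% in all, and 5 and 1 keratins under scaling by housekeeping genes), and against INDO 1 was called, Krt83, which was lower (-1.51 ± 0.418, adjusted p = 0.0145, with 3.54% of all genes called lower, 7.21% higher and 10.8% in all). The interaction of 6 Gy and INDO was called for 0 of 34, with 3 at an unadjusted p under 0.05 and 0 by DESeq2, where 7.58% of all genes were called (5.65% higher and 1.92% lower).

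Whether an effect differed between the 5 days was tested in the same fit. For 6 Gy + INDO 13 of 34 keratins were called, where 33.6% of all genes were, among them Krt18, Krt15, Krt16 and Krt17 (edgeR adjusted p = 0.0342, 0.0303, 0.0485 and 0.0359). Without the tumors high in receptor genes 0 were called. For 6 Gy alone 1 was called, Krt71 of the inner root sheath (adjusted p = 0.0242), where 3.82% of all genes were. Its highest value of all tumors, 2.93 CPM, was in control replicate 4 of day 1, the day the later days are set against. For INDO 0 were called, with 2 at an unadjusted p under 0.05, where 2.66% of all genes were, and DESeq2 was not run for these tests.

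**Figure D5:**
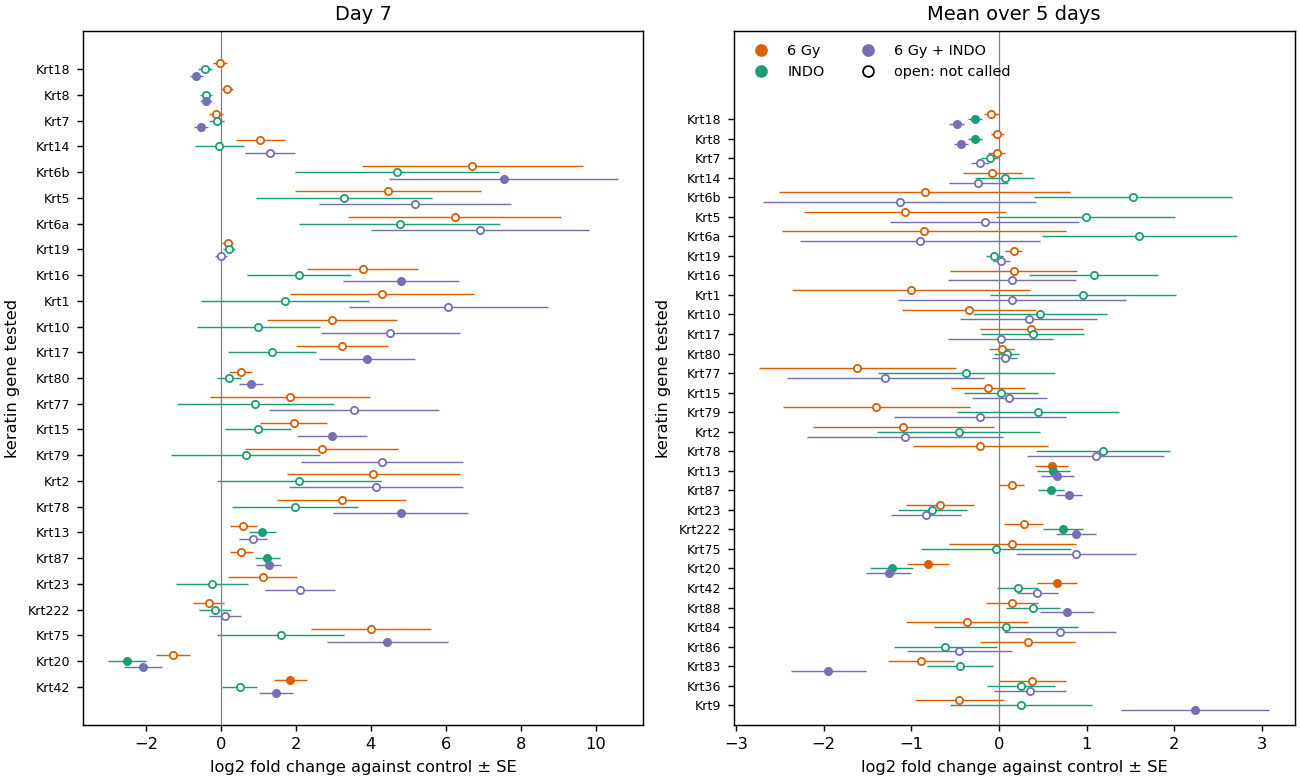
Log2 fold change against control ± SE of the keratins tested on day 7 (left) and as a mean over 5 days (right) for 6 Gy, INDO and 6 Gy + INDO, with filled points for genes called at an edgeR adjusted p under 0.05. Krt25, Krt26 and Krt71 are not drawn on the right because their SE exceeded 10. Krt8 and Krt18 lie below 0 with 6 Gy + INDO in both panels, while wide errors accompany the epidermal and wound keratins.

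In control tumors, 3 of 6 simple keratins, Krt7, Krt18 and Krt19, were called higher on day 23 than on day 1. Krt8 was not, at 943, 894, 808 and 824 CPM on day 1 and 1070, 953 and 716 CPM on day 23 (log2 fold change 0.07 ± 0.196, edgeR adjusted p = 0.877). Krt7 was at 319, 292, 206 and 141 CPM on day 1 and 418, 584 and 515 CPM on day 23 (log2 fold change 1.08 ± 0.247, edgeR adjusted p = 0.000607), without overlap. Krt18 was at 858, 882, 789 and 803 against 1720, 1290 and 1030 CPM (0.70 ± 0.208, adjusted p = 0.0095), also without overlap. Krt19 was at 37.5, 37.6, 31.9 and 33.1 against 58.7, 72.8 and 38.0 CPM (0.69 ± 0.249, adjusted p = 0.0354). The call of Krt18 was lost without day 23 replicate 1 (0.41, adjusted p = 0.308). That of Krt19 was lost without day 1 replicate 3 or 4 or day 23 replicate 1 or 2 (down to 0.45, adjusted p = 0.324), with no filter and under scaling by housekeeping genes (adjusted p = 0.0586). Krt80 was lower, at 38.9, 26.5, 35.1 and 26.4 against 12.2, 9.92 and 12.6 CPM (-1.45 ± 0.367, adjusted p = 0.00195), and so was Krt42, at 0.448, 0.509, 0.411 and 0.486 against 0.0279, 0.113 and 0.11 CPM (-2.43 ± 0.607, adjusted p = 0.00172). In all 4 of 34 keratins were called higher and 6 lower, where 11.7% and 9.9% of all genes were, 21.6% in all. Krt88 was the other higher member and Krt36, of the hair shaft, another lower one. The remaining lower members were the inner root sheath keratins Krt25, Krt26 and Krt71, which rested on 1 tumor: control replicate 4 of day 1 had 1.57, 0.571 and 2.93 CPM, the other 3 at most 0.0113, 0.0362 and 0.0121. On day 23 Krt25 and Krt26 were at 0 in all 3 tumors. All 8 adipocyte genes were called lower on day 23 (median -5.25) and 0 of the 22 epidermal genes that are not keratins were called (median -1.98), and their part in the result was not tested. Without day 1 replicate 4, 4 keratins were called, and without replicate 1 or 2 of day 23 the counts were 5 and 6.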

How the data were processed

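Gene-level RNA-seq values of 94 bulk tumors were used, each a separately labelled tumor, and p-values measure the spread between these tumors. The authors deposited expected counts per gene, which need not be whole. The submitters' processing notes name cutadapt, STAR, Partek 11.0.24.0328 and mm10, and for the gene annotation no version was named in the labels or methods read. Counts were rounded to whole numbers, and 0 columns were left unmapped. Libraries held 21.0 to 109 M counts (median 47.1), with medians of 37.5 M for 6 Gy + INDO and 73.4 M for control, and levels at or under 3 counts are not detectable reliably.

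Groups were taken from the labels. Genes passing filterByExpr were tested with edgeR 4.0.16 (R 4.3.3, TMM, quasi-likelihood) within each day over its 4 groups, and in 1 fit of all tumors for means over days, the interaction, changes between days and control day 23 against day 1, which makes 25 comparisons. p-values were adjusted over all genes tested (Benjamini-Hochberg), and SE was the log2 fold change divided by the square root of F. Correlations used log2 CPM (prior count 2) with permutation tests (scipy 1.17.1). The fits were tested on simulated data. Alternatives were RLE size factors, scaling by 14 housekeeping genes, no filter, DESeq2 1.42.0, all tumors in 1 fit, a replicate block, leaving out each tumor or day, and leaving out tumors over 300 CPM of olfactory and vomeronasal receptor genes. Leaving out single tumors from control day 23 against day 1 was chosen after the data were seen.

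The members, keratin classes and marker lists were chosen with earlier results of these data known. Members named were those with a mean of at least 1 CPM and up to 4 called members per class in each comparison. Other members and markers that are named were chosen after their values were seen. Shared sequence was counted as 75-base stretches of a gene found in another gene.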

Additional observations from a re-analysis of the deposited data

Results flagged for a closer look

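A tumor stood far from the others of its group (Dixon's criterion) in 5 of 54 group sums tested. Chance gives about 1 in 20 where values are normally distributed. The epidermal and hair sums spanned 108-fold and 28.7-fold over the tumors, so that rate may not hold for them. The simple epithelial sum was 1480 CPM in INDO replicate 3 on day 3. The epidermal and wound sum was 1620 CPM in 6 Gy + INDO replicate 4 on day 1 and 4050 CPM in INDO replicate 1 on day 15. The hair keratin sum was 12.7 CPM in control replicate 4 on day 1 and 4.3 CPM in 6 Gy replicate 1 on day 3.

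The effect of 6 Gy differed between days for Krt71 (edgeR adjusted p = 0.0242). The effect of 6 Gy + INDO differed between days for Krt26 (edgeR adjusted p = 0.000487), Krt71 (0.00161), Krt9 (0.00291), Krt25 (0.00354), Krt23 (0.0209), Krt15 (0.0303), Krt18 (0.0342), Krt17 (0.0359), Krt80 (0.0362), Krt20 (0.0403), Krt10 (0.0434), Krt42 (0.0482) and Krt16 (0.0485). None of these 13 was called without the 11 tumors high in receptor genes, which leaves 1 tumor given 6 Gy + INDO on day 3.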

How the results depend on the processing

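Of 182 recomputed counts of keratins called, 135 stayed within 1.5 times of the reported count and 47 moved further. Of 1022 recomputed values of the 60 single calls, 851 kept the call and 0 reversed, 2 had no DESeq2 adjusted p, and 19 calls were kept in every refit. The cause of these moves was not tested. The 6 Gy + INDO libraries were the shallowest, which limits keratins near 3 counts.

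With DESeq2 the counts became 4, 4 and 6 on day 1 for 6 Gy, INDO and 6 Gy + INDO, 8 for 6 Gy + INDO on day 3, 4 for 6 Gy and 5 for INDO on day 7, 1 for INDO and 3 for 6 Gy + INDO on day 15, 3 for 6 Gy and 2 for 6 Gy + INDO on day 23, and 2 for 6 Gy + INDO against INDO over days. Of these DESeq2 calls 2 were higher and 2 lower for 6 Gy and for INDO on day 1, on day 7 the split was 3 and 1 (6 Gy) and 2 and 3 (INDO), against INDO it was 1 and 1, and against 6 Gy 5 were higher and 2 lower. Of all genes, DESeq2 called 4219, 4154 and 6146 of 22276 on day 1, in the same order of treatments. For 6 Gy + INDO on day 3 it called 5288 of 21814, and on day 7 4496 (6 Gy) and 6576 (INDO) of 21874. Against INDO over days it called 3180 of 29373. With no filter the keratin counts became 4, 3 and 11 on day 1 (2349, 2411 and 4136 of all 43856 genes). They were 10 for 6 Gy + INDO on day 3 (12689 of 45834 genes) and 28 on day 7 (19156 of 45667). For 6 Gy + INDO against INDO 2 were called (2717 of 48451 genes), and for the interaction 1 was (1778 of 48451). With all 94 tumors in 1 fit of 29373 genes, the keratin counts became 3 for 6 Gy and 6 for 6 Gy + INDO on day 1 (1934 and 3688 genes). On day 3 they were 2 and 10 for the same pair (2057 and 11964 genes). On day 7 they were 2, 5 and 22 for 6 Gy, INDO and 6 Gy + INDO (3250, 5425 and 16376 genes). The count for 6 Gy + INDO on day 23 was 5 (6735 genes). With RLE size factors, 2 keratins had a 6 Gy effect that differed between days, as had 1357 of all 29373 genes.

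Without the tumors high in receptor genes 1 tumor given 6 Gy + INDO is left on day 3, so no count is given for that day. On day 7 the counts were 5 for 6 Gy and 4 for 6 Gy + INDO (4189 and 4710 of all 22906 genes). Over days, 2 keratins were called against 6 Gy and 0 against INDO (5805 and 146 of all 26591 genes). The count was 17 for control day 23 against day 1 (7133 genes), and 3 for effects of 6 Gy that differ between days (1077 genes). Over days, the count for 6 Gy was 1 without day 1 or day 7, that for INDO 3 without day 7, and that for 6 Gy + INDO 14 without day 15. Against 6 Gy it was 10 without day 15, and against INDO 2, 0, 0 and 7 without days 1, 3, 7 and 15. For fits without single days or single tumors the share of all genes called is not given. Keratin counts from these fits may move with that share.

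Leaving out single tumors gave counts of 1 to 3, 0 to 2 and 1 to 17 on day 1 for 6 Gy, INDO and 6 Gy + INDO, 1 to 1, 0 to 0 and 1 to 5 on day 3, 1 to 2, 2 to 5 and 5 to 20 on day 7, 0 to 0, 0 to 0 and 0 to 1 on day 15, 0 to 0, 0 to 0 and 0 to 3 on day 23, and 4 to 9 for control day 23 against day 1.

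The replicate block gave 1 for 6 Gy + INDO on day 1 (4966 of all 22276 genes) and 5 on day 7 (8896 of 21874). For 6 Gy on day 23 it gave 3 (22 of 21133 genes). The labels give a replicate number and no other link between tumors. For 132 pairs of same-day tumors with the same number, r was taken between their deviations from the group means. It ranged from -0.621 to 0.683 (median 0.0625), and 59 were over 0.1. For 528 pairs with different numbers r ranged from -0.788 to 0.714 (median -0.0187), and 178 were over 0.1. What tumors with the same number share was not tested.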
